A study of Mus musculus with 6 samples.

Results

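Imprinted genes, which are transcribed mainly from the copy inherited from the mother or from the father, were measured in mouse neural stem cells that were being reprogrammed toward pluripotency. The set holds 35 genes fixed by name, and rows of the same name were taken from every file. Of the 35, 29 were found among the 20325 genes listed per file, and 22 of these passed the count filter of the test. The transcripts in the files all carry protein-coding RefSeq identifiers, and the 6 members not found (H19, Kcnq1ot1, Meg3, Rian, Mirg and Airn) are long noncoding RNAs in RefSeq and are not analysed here.

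The cells were isolated on postnatal day 4 from mice of a mixed 129 and Black 6 background. All of them carried the doxycycline-inducible Oct4, Sox2, c-Myc and Klf4 cassette (Stemcca) at ColA1 on both copies, and the reverse tetracycline activator at Rosa26 on a single copy. Doxycycline was given until day 7, and cells were then fixed, stained for Nanog and E-cadherin and sorted. Nanog+E-cadherin+ cells (n = 3) and Nanog+E-cadherin- cells (n = 3) therefore shared genotype and treatment and differed in the stain for E-cadherin. Unreprogrammed cells and iPS cell lines were not analysed here, so every level is one of cells in the middle of reprogramming. Cdh1, the gene of E-cadherin, followed the gate at 129 ± 21.3 CPM against 17.4 ± 2.50 CPM (SD, n = 3 each), where CPM is a count rescaled to a common library size with TMM, edgeR's factor for library composition. Where 3 values are given for a population, they are replicates 1, 2 and 3 in that order.

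Many imprinted genes lie in clusters that share an imprinting control region, a stretch of DNA methylated on the copy from 1 parent only. Maintenance methylation by Dnmt1 and Uhrf1, with the zinc finger protein Zfp57 and its partner Trim28, keeps that mark through cell division. Many of the genes act in fetal growth, placenta and brain, and the Dlk1-Dio3 cluster is known for being silenced in some mouse iPS cell lines. Its noncoding members Meg3, Rian and Mirg are not analysed here, so silencing of the cluster was not tested. The counts here are per gene and do not tell the parental copies apart, so they measure level and not imprinting.

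Total expected counts ran from 8851110 to 39630916 per library, so a count of 3 corresponds to between 0.0844 and 0.314 CPM. Both groups carry replicate numbers 1 to 3, and libraries that share a number resembled each other. The libraries numbered 1 differed from the others in markers of other cell types. Summed levels were 438 and 515 CPM there against 1492 to 3571 CPM in the rest for 9 fibroblast and mural cell genes, and 34.6 and 63.9 CPM against 320.2 to 882 CPM for 6 astrocyte genes. A set of 6 genes that was chosen because an earlier analysis found it high in Nanog+E-cadherin- replicates 2 and 3 summed to 769.9 and 433 CPM there, 77.8 and 26.6 CPM in Nanog+E-cadherin+ replicates 2 and 3, and at most 3.02 CPM in the libraries numbered 1. Summed Y-linked genes stood at 1.43 and 0 CPM in the libraries numbered 2 and between 60.3 and 159.5 CPM in the others. In bulk RNA, fewer cells of a type and less RNA per cell cannot be told apart.

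Promoter sequence of the members on which the results turn was read from RefSeq (GRCm38.p6), where 30 of the 35 genes had an entry and Peg10, Sgce, H19, Rtl1 and Impact had none. The 250 bases before the start site are shown 5′ to 3′, with each CG, the dinucleotide that carries DNA methylation, in capitals. They are shown because Nnat had the smallest unadjusted p between the populations in the fit on group alone, while Dlk1, Plagl1 and Mest were among the members that differed most between replicate numbers. For Mest, which has 3 start sites in that table, the window with most CG was taken.
Nnat, chr2:157559828-157560077 (+): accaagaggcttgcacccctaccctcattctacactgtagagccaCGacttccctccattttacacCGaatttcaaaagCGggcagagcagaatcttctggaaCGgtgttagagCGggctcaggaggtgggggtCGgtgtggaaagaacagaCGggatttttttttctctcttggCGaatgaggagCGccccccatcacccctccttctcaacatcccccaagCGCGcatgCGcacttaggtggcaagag
Dlk1, chr12:109452573-109452822 (+): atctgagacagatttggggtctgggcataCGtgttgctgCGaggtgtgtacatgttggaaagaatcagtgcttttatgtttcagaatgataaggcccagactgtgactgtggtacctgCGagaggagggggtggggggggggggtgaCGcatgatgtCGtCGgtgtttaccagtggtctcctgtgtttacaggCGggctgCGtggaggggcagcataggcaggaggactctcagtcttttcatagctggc
Plagl1, chr10:13090582-13090831 (+): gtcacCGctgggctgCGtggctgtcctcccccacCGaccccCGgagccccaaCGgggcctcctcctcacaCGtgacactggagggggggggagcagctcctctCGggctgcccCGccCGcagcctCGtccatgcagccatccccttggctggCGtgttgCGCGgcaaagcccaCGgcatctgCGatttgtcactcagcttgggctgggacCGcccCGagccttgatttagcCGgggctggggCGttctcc
Mest, chr6:30737800-30738049 (+): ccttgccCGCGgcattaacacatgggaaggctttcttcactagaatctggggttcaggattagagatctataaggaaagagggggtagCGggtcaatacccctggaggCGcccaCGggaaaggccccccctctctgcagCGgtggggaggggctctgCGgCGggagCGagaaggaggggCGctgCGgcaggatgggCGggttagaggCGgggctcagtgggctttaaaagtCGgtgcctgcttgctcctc

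CG was counted on the strand shown, and since it reads the same on the other strand 1 count covers both. Plagl1 held 19, Mest 14, Nnat 12 and Dlk1 8, beside a median of 6 over 32851 windows of the same length. Windows with at least as many made up 19.7% of the table for Plagl1, 29.4% for Mest, 33.5% for Nnat and 43.0% for Dlk1. The counts describe the letters of these windows, and methylation was not measured.

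Peg3 and Usp29 start head to head, and the 163 bases between their start sites are shown on the strand of Usp29 because the pair had very different levels from this shared stretch. It holds 5 CG.
Peg3-Usp29, chr7:6730420-6730582 (+): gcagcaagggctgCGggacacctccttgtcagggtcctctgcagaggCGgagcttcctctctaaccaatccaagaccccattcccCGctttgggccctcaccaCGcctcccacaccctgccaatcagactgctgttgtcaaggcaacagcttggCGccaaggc

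Levels of different genes were compared in TPM, which divides by transcript length and rescales each library to a common total. Gnas, the stimulatory G protein alpha subunit, had the highest mean level, 1090 ± 255 TPM (SD over 6 libraries). It was followed by Grb10, an adaptor that dampens insulin and IGF receptor signalling, at 194 ± 80.5 TPM and by Nnat, a small membrane protein of developing brain, at 114 ± 60.2 TPM. Peg10 stood at 69.7 ± 40.0 TPM, Dlk1 at 67.7 ± 73.2 TPM and Mest at 59.3 ± 40.9 TPM, and the order of these 3 is not separated by their spread. Gnas was above every other member in every library. The value of Gnas combines 8 transcripts, so its several promoters, which are imprinted differently, cannot be told apart.

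**Figure D1:**
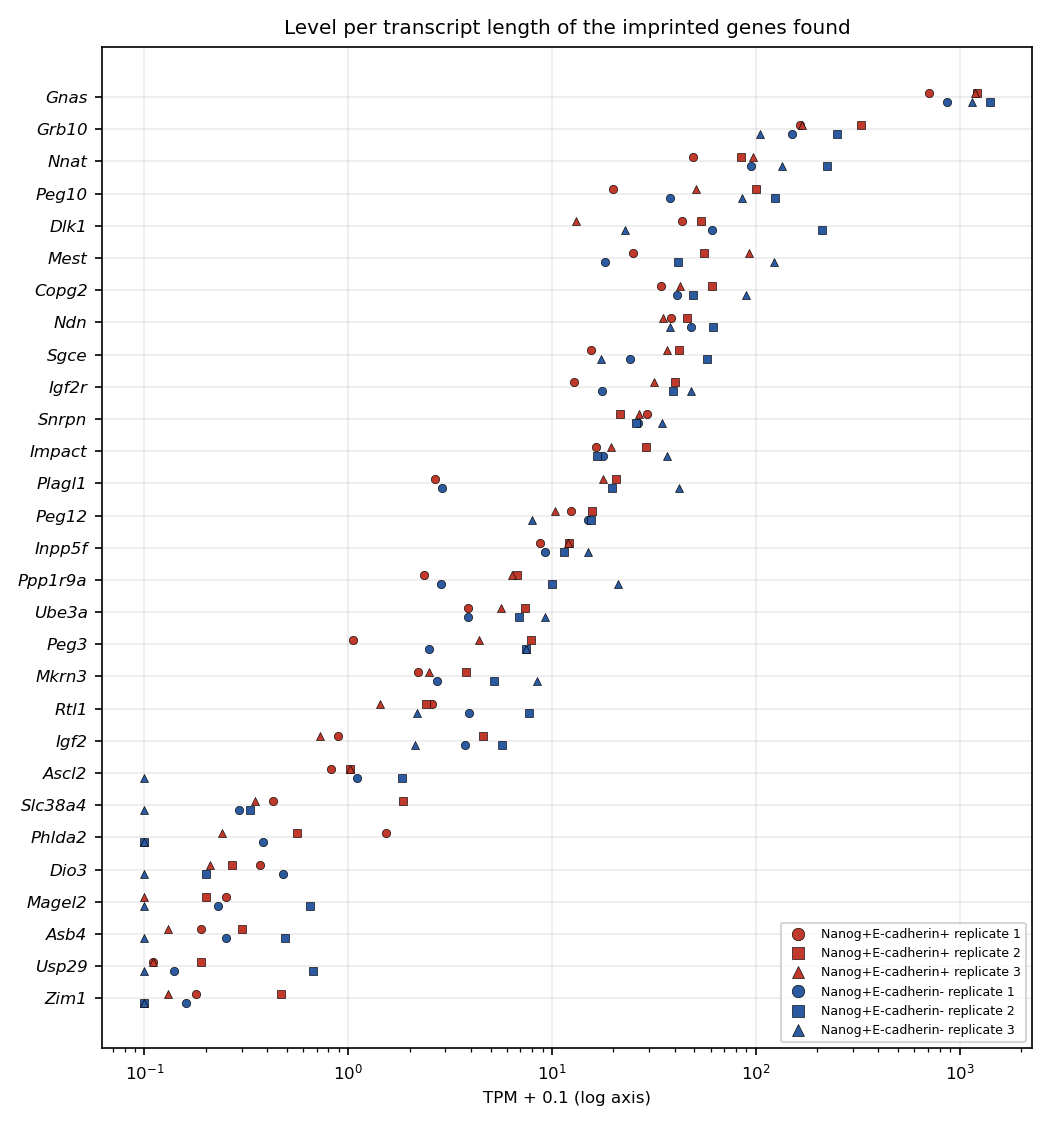
Level per transcript length of the 29 imprinted genes found, in TPM + 0.1 on a log axis, with 1 symbol per library (red, Nanog+E-cadherin+; blue, Nanog+E-cadherin-; circle, square and triangle for replicates 1, 2 and 3). Gnas is the highest, and the 7 genes below the count filter lie at the bottom.

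Among the members, 7 were too low to test. The ubiquitin protease gene Usp29 reached 1.99 CPM in its highest library, the placental growth regulator Phlda2 0.771 CPM, and the zinc finger gene Zim1 0.608 CPM. Asb4, Magel2 and Dio3, a deiodinase that inactivates thyroid hormone, reached 0.604, 1.21 and 0.506 CPM. Each of the 7 was at a count of 0 in at least Nanog+E-cadherin- replicate 3, the shallowest library, where 3 counts correspond to 0.314 CPM. Slc38a4, an amino acid transporter, stood at 0.991, 3.25 and 0.5003 CPM in Nanog+E-cadherin+ cells and at 0.534, 0.432 and 0 CPM in Nanog+E-cadherin- cells. Its groups overlapped, and the highest value rests on 43 counts. Ascl2, a transcription factor of trophoblast, passed the filter at between 0 and 1.29 CPM.

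Between the sorted populations, no imprinted gene passed edgeR's quasi-likelihood test after Benjamini-Hochberg adjustment (0 of 22, background 0% of 13460 genes). Cdh1 itself did not pass this test (edgeR adjusted p = 0.0608), so the count of 0 cannot show that the members were alike. At an unadjusted p under 0.05 there was 1 member, Nnat, beside 2.67% of all genes. Limma-voom with group only also passed 0 members (background 0%). DESeq2's Wald test passed 0 members too (background 0.156%). It gave no adjusted p for 7834 of 13460 genes, among them Igf2, Mkrn3, Ppp1r9a and Rtl1, so these could not pass. In edgeR a block for the replicate number left the count at 0 of 22 (background 0.305%). With it, 6 members had an unadjusted p under 0.05, 5 of them lower in Nanog+E-cadherin+ cells, beside 10.7% of all genes. Cdh1 passed with this block (edgeR adjusted p = 0.00177). In limma-voom with the block, Nnat and Dlk1 passed, with adjusted p of 0.0397 and 0.0286, beside 1.96% of all genes. The fitted changes leaned lower in Nanog+E-cadherin+ cells. They were below 0 for 19 of 22 members, with a median log2 fold change (Nanog+E-cadherin+ over Nanog+E-cadherin-) of -0.23, against 51.5% and -0.01 over all genes tested. With DESeq2 size factors 17 of 22 were below 0, and with the block 16 of 22. Several of the 19 were close to 0, such as Gnas at -0.05 and Inpp5f, an inositol phosphatase, at -0.01.

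Within equal replicate numbers, 7 of 22 members were lower in Nanog+E-cadherin+ cells in all 3 pairs (background 17.1%), namely Nnat, Dlk1, Rtl1, Igf2, Peg10, Ppp1r9a and Mkrn3. Only Grb10 of the 22 was higher in all 3 pairs (background 19.1%). The same 7 genes were counted with scaling by library totals or DESeq2 size factors, and Ndn joined them on the TPM scale. The median log2 ratio over the members was -0.20, -0.23 and -0.38 in the pairs numbered 1, 2 and 3, against 0.00, -0.01 and 0.04 over all genes. The groups did not overlap for 2 members, Nnat and Mkrn3, both lower (background 3.19%), and for 0 higher (background 3.76%, and 6.95% in either direction). Neuron markers leaned the same way, with 11 of 12 tested fitted lower (background 51.5%) and a median log2 fold change of -1.17. Of these, 1 (Tubb3) passed in the blocked edgeR fit (background 0.305%). The 14 neuron markers found summed to 997, 406 and 229 CPM in Nanog+E-cadherin+ cells and to 1381, 691 and 382 CPM in Nanog+E-cadherin- cells, with Gad1 and Dlx2 under 1 CPM in every library. Neural stem cell markers also leaned lower (8 of 11, median -0.21). So did markers of the oligodendrocyte lineage (5 of 7, median -0.30) and of fibroblasts and mural cells (6 of 9, median -0.26). Astrocyte markers leaned higher (4 of 5, median 0.29), and endothelial markers were split (2 of 4 lower). The part of these marker RNAs in the lower imprinted genes was not tested.

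**Figure D2:**
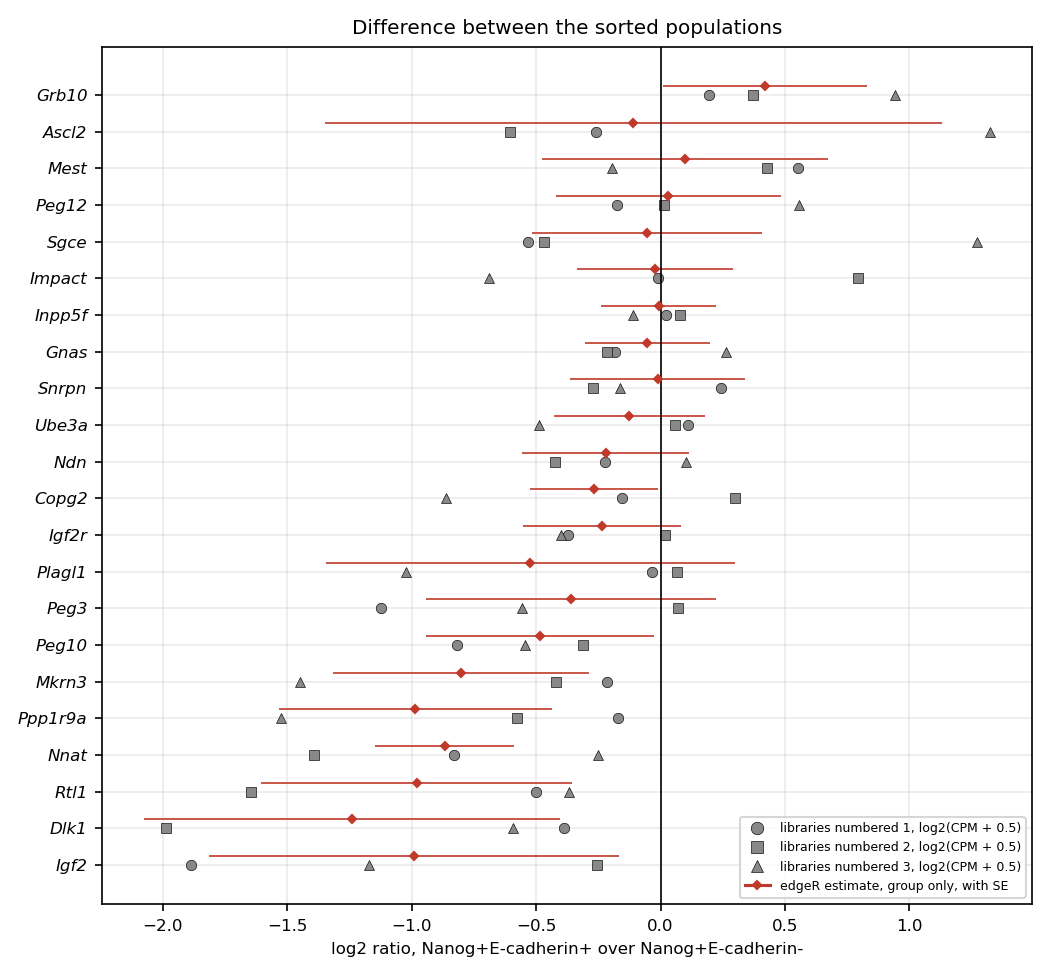
Difference between the populations for the 22 tested members, as log2 ratio of Nanog+E-cadherin+ over Nanog+E-cadherin-. Grey symbols are the 3 pairs of equal replicate number, on log2(CPM + 0.5), and red diamonds the edgeR estimates with SE; for Igf2, Dlk1, Rtl1, Nnat, Ppp1r9a, Mkrn3 and Peg10 all 3 pairs lie below 0.

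Nnat stood at 43.6, 46.3 and 58.1 CPM in Nanog+E-cadherin+ cells and at 78.0, 122 and 69.3 CPM in Nanog+E-cadherin- cells. The lowest library without E-cadherin lay above the highest with it. The means were 49.3 ± 7.68 and 89.8 ± 28.4 CPM (SD, n = 3 each). On the log2 scale the difference was -0.87 ± 0.28 (SE), with an adjusted p of 0.9999 in edgeR's test. The blocked estimate was -0.83 ± 0.23, with an adjusted p of 0.251. With the libraries numbered 2 left out the blocked change was -0.55 (edgeR adjusted p = 0.567). With those numbered 3 left out it was -1.11 and Nnat passed (edgeR adjusted p = 0.00156), beside 3.31% of all genes. With all 3 pairs, 0.305% of all genes passed the blocked edgeR fit. Nnat lies within the gene Blcap, and reads of overlapping transcripts cannot be told apart where strand was not used.

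In the Dlk1-Dio3 cluster, Dlk1 encodes a transmembrane relative of the Notch ligands that restrains differentiation of several progenitor types, and Rtl1 is a retrotransposon-derived gene of placenta and muscle. Dlk1 stood at 145 CPM in Nanog+E-cadherin+ replicate 1, 109 CPM in replicate 2 and 29.0 CPM in replicate 3. In Nanog+E-cadherin- cells it stood at 190.1, 434 and 44.0 CPM. Both libraries numbered 3 were low and the populations overlapped, yet each library without E-cadherin was above its partner. Dlk1 had a log2 fold change of -1.24 ± 0.83 (SE), and of -0.99 ± 0.29 with the block, with edgeR adjusted p of 0.9999 and 0.271. The size rested on the pair numbered 2: the change with group only was -0.31 without Nanog+E-cadherin- replicate 2. In blocked edgeR fits of 2 pairs Dlk1 passed without the libraries numbered 1 (adjusted p = 0.00047) and without those numbered 3 (adjusted p = 0.0167). It did not pass without those numbered 2, at -0.49 (adjusted p = 0.598). Of all genes 1.34%, 3.31% and 1.03% passed when numbers 1, 3 and 2 were left out.

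Rtl1 was lower per length, at 3.27 ± 2.27 TPM over the 6 libraries, with 10.1, 5.67 and 3.62 CPM in Nanog+E-cadherin+ cells and 14.4, 18.8 and 4.82 CPM in Nanog+E-cadherin- cells. Both genes were lowest in the libraries numbered 3 and highest in Nanog+E-cadherin- replicate 2. The log2 fold change of Rtl1 was -0.98 ± 0.62 (SE, edgeR adjusted p of 0.9999), and -0.58 without Nanog+E-cadherin- replicate 2. A transcript antisense to Rtl1 is known from the maternal copy, and its reads cannot be told apart from those of Rtl1 here.

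Igf2, the fetal growth factor of the Igf2-H19 cluster, was low, at 2.26, 8.09 and 1.201 CPM in Nanog+E-cadherin+ cells and 9.68, 9.76 and 3.33 CPM in Nanog+E-cadherin- cells. Its log2 fold change was -0.99 ± 0.82 (SE, edgeR adjusted p of 0.9999), -2.13 when Nanog+E-cadherin+ replicate 2 was left out and -0.55 when replicate 3 of the same population was. Igf2r, the receptor that clears Igf2 by sending it to the lysosome, was more abundant per length, at 31.5 ± 13.9 TPM against 2.86 ± 2.04 TPM for Igf2 (SD over 6 libraries). It stood at 87.9, 169 and 146 CPM in Nanog+E-cadherin+ cells and at 114, 167 and 193 CPM in Nanog+E-cadherin- cells, so the groups overlapped widely. Plagl1, a zinc finger transcription factor known to act on Igf2 and other imprinted genes, stood at 10.4, 50.9 and 48.1 CPM in Nanog+E-cadherin+ cells and at 10.7, 48.6 and 98.2 CPM in Nanog+E-cadherin- cells. The populations were nearly equal in the pairs numbered 1 and 2.

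Grb10 stood at 621, 777 and 442 CPM in Nanog+E-cadherin+ cells and at 543, 601 and 230.2 CPM in Nanog+E-cadherin- cells. It was higher with E-cadherin in each pair, although the groups overlapped, and the blocked log2 fold change was 0.50 ± 0.16 (SE, edgeR adjusted p = 0.338). In the same list of separate loci Gnas stood at 941, 982 and 1053 CPM in Nanog+E-cadherin+ cells and at 1068, 1138 and 878 CPM in Nanog+E-cadherin- cells. Impact, a regulator of translation in neurons, ran from 26.7 to 55.7 CPM over the 6 libraries, and Inpp5f from 25.5 to 31.7 CPM. Inpp5f is known to be imprinted only for a short brain transcript, which the single transcript in these files does not separate.

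Of the Peg10-Sgce cluster, Peg10, a retrotransposon-derived gene needed for the placenta, stood at 103, 316 and 175 CPM in Nanog+E-cadherin+ cells and at 181.9, 392.1 and 255.5 CPM in Nanog+E-cadherin- cells. Each library without E-cadherin exceeded its partner, while both libraries numbered 2 exceeded all others. The blocked log2 fold change was -0.56 ± 0.15 (SE, edgeR adjusted p = 0.229). In the blocked fit without the libraries numbered 3 Peg10 passed as well, beside 3.31% of all genes. Sgce, a sarcoglycan of the cell membrane that starts next to Peg10, stood at 19.8, 32.7 and 31.6 CPM in Nanog+E-cadherin+ cells and at 28.9, 45.4 and 12.8 CPM in Nanog+E-cadherin- cells. Like Peg10 it was lower with E-cadherin in the pairs numbered 1 and 2, and in the pair numbered 3 it was higher, with 122 counts in Nanog+E-cadherin- replicate 3. Ppp1r9a, the actin-binding neuronal protein neurabin, stood at 16.8, 30.0 and 30.9 CPM in Nanog+E-cadherin+ cells and at 18.99, 44.97 and 90.0 CPM in Nanog+E-cadherin- cells. Its log2 fold change was -0.98 ± 0.55 (SE, edgeR adjusted p of 0.9999) and rested on the last of these libraries, being -0.30 without it. Without both Nanog+E-cadherin- replicates 2 and 3 the change of Ppp1r9a was 0.44, the opposite direction, with 1 library left in that group.

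In the Mest cluster, Mest, an enzyme-like protein of the hydrolase fold expressed in mesoderm, stood at 48.3, 66.3 and 120.3 CPM in Nanog+E-cadherin+ cells and at 32.8, 49.2 and 138 CPM in Nanog+E-cadherin- cells. Its neighbour Copg2, a coatomer subunit of vesicle transport, ran from 68.2 to 124 CPM. Neither separated the populations. The ends of Mest and Copg2 transcripts lie close on opposite strands, where reads could be assigned to either.

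Peg3, a zinc finger protein of growth and maternal behaviour, stood at 4.95, 24.3 and 14.7 CPM in Nanog+E-cadherin+ cells and at 11.4, 23.1 and 21.8 CPM in Nanog+E-cadherin- cells. From the other side of the stretch printed above, Usp29 stayed between 0 and 1.99 CPM. Per length Peg3 stood at 5.02 ± 2.92 TPM and Usp29 at 0.120 ± 0.223 TPM (SD over 6 libraries).

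In the Snrpn-Ube3a region, linked in humans to Prader-Willi and Angelman syndromes, 5 of 6 members were tested and fitted changes ran from -0.80 to 0.03. Mkrn3, a ring finger protein, stood at 4.07, 4.39 and 3.10 CPM in Nanog+E-cadherin+ cells and at 4.81, 6.04 and 9.33 CPM in Nanog+E-cadherin- cells. Its groups did not overlap with TMM scaling and did with library totals, where Nnat alone remained apart (1 member). The log2 fold change of Mkrn3 was -0.80 ± 0.52 (SE, edgeR adjusted p of 0.9999), and -0.49 without Nanog+E-cadherin- replicate 3. Ndn, a growth suppressor of neurons, ran from 27.1 to 55.8 CPM and Peg12, a Frat-family gene, from 9.22 to 28.3 CPM. Snrpn, a splicing ribonucleoprotein gene, ran from 19.7 to 43.8 CPM and Ube3a, the ubiquitin ligase of Angelman syndrome, from 13.4 to 20.01 CPM. These 4 overlapped between the populations.

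**Figure D3:**
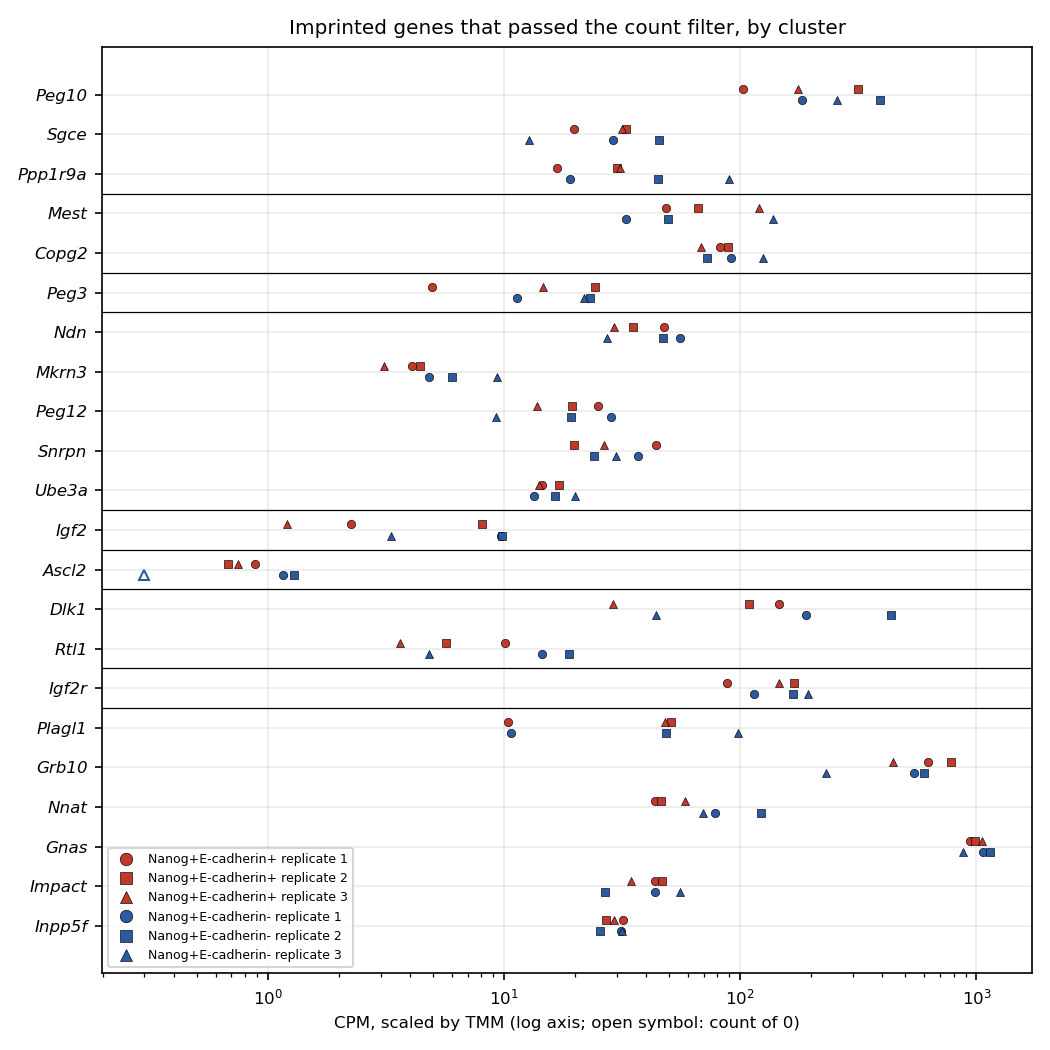
TMM-scaled CPM of the 22 tested imprinted genes in each of the 6 libraries on a log axis, grouped by cluster (lines), with the same symbols by library as in the plot of levels per length. For Plagl1 both libraries numbered 1 lie below the other 4, and for Dlk1 both libraries numbered 3 do.

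The members were also split by the parental copy assigned to each gene as the active one. Which copy was active in these cells was not measured. Of the genes assigned to the paternal copy, 15 were tested, 13 were fitted lower and the median log2 fold change was -0.36. The 5 tested genes assigned to the maternal copy were all fitted lower with a median of -0.24 (background 51.5% fitted lower). Of these, Ascl2, at 0 to 1.29 CPM, was fitted at -0.11 ± 1.24 (SE), and at 0.37 with the block. In the pairs numbered 1, 2 and 3 the median log2 ratio was -0.22, -0.27 and -0.37 for the paternal class and -0.17, 0.02 and -0.49 for the maternal class. Grb10 and Gnas, listed as depending on tissue or promoter and put in neither class, had a median of 0.18. The assignments of the other genes were not checked for these cells. The difference between the parental classes was not tested, and the maternal class lacks the 4 noncoding members H19, Meg3, Rian and Mirg.

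More imprinted genes passed a test between replicate numbers than between the sorted populations, and the same held for all genes tested. Between the populations 0% of all genes passed in edgeR with group only and 0.305% with the block. In edgeR's F test of the replicate numbers, with group in the model, 8 of 22 members passed an adjusted p of 0.05, which is 36.4%, beside 22.2% of all genes tested. They were Plagl1 (adjusted p = 0.002), Mest (0.00353), Peg10 (0.00357), Dlk1 (0.00362), Grb10 (0.0133), Ppp1r9a (0.0253), Igf2r (0.0283) and Peg3 (0.0364). The median SD of log2 CPM over the 6 libraries was 0.59 for the members and 0.47 for all genes tested. The labels do not state what a replicate number stands for, nor that replicates were separate cultures or animals. The p-values therefore describe the spread between these samples. The F test was run because libraries sharing a number resembled each other in these same values. Its passes are therefore no independent sign that the numbers differ. The Y-linked values given above set both libraries numbered 2 apart from the others.

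Plagl1 differed most from the libraries numbered 1, going from a mean of 10.5 CPM in the libraries numbered 1 to 49.7 and 73.1 CPM in those numbered 2 and 3. In the model it was 4.77-fold and 6.69-fold higher than in the libraries numbered 1, with log2 ratios of 2.25 ± 0.31 and 2.74 ± 0.32 (SE). Peg3 (8.17, 23.7 and 18.2 CPM) and Ppp1r9a (17.9, 37.5 and 60.5 CPM for numbers 1, 2 and 3) were likewise lowest in the libraries numbered 1. So was Igf2r, at 1.69-fold and 1.68-fold higher in those numbered 2 and 3. Peg10 was highest in those numbered 2 (142, 354 and 215 CPM) and Mest in those numbered 3 (40.6, 57.8 and 129 CPM). Without the libraries numbered 1, 3 of 21 members passed, namely Dlk1, Grb10 and Mest, beside 2.19% of all genes. Peg10 then had an adjusted p of 0.0584 in edgeR's test, and Plagl1, Peg3, Ppp1r9a and Igf2r had adjusted p from 0.727 to 0.998.

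Dlk1 and Grb10 went the other way, with the libraries numbered 3 lowest. Dlk1 averaged 168, 272 and 36.5 CPM in the libraries numbered 1, 2 and 3, and the log2 ratio of number 3 over number 1 was -2.23 ± 0.35 (SE). Grb10 averaged 582, 689 and 336 CPM, with a log2 ratio of -0.85 ± 0.20 for number 3 over number 1. Without the libraries numbered 3, where 38.7% of all genes passed, neither did, at an adjusted p of 0.264 for Dlk1 and 0.162 for Grb10 in edgeR's test. Gnas, Inpp5f, Copg2, Ube3a, Impact and Nnat did not pass between numbers, with edgeR adjusted p from 0.523 for Nnat to 0.820 for Copg2. Gnas and Nnat passed in limma on log2(TPM + 1), where 34.3% of all genes did.

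**Figure D4:**
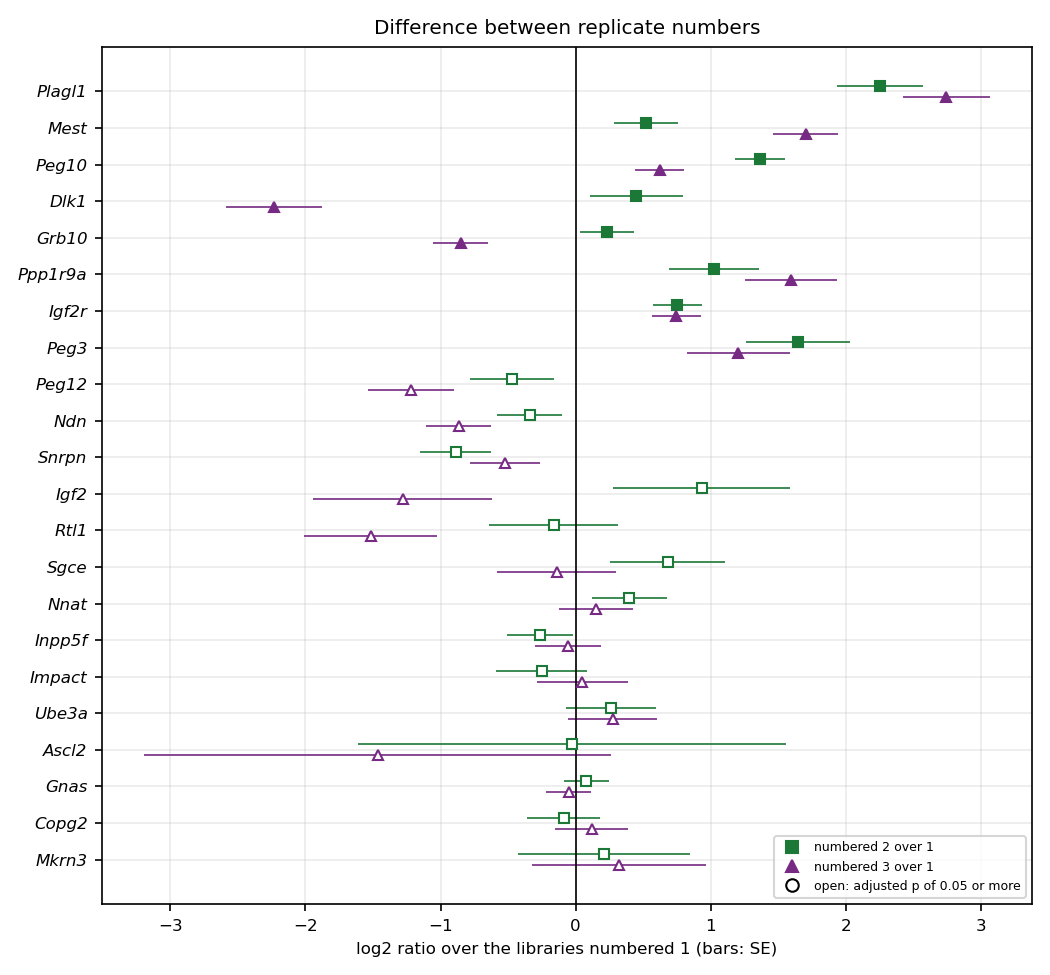
Log2 ratio of the libraries numbered 2 (squares) and 3 (triangles) over those numbered 1 for the 22 tested members, from the edgeR fit with group and replicate number, with SE. Filled symbols mark the 8 members with an adjusted p under 0.05, from Plagl1 at the top to Peg3.

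The directions of these 8 were the same with TMM, library totals, DESeq2 size factors and TPM. The TPM scale moved the median of all genes by 0.69 and 0.61 (log2, numbers 2 and 3 over 1), and library totals moved it by 0.31 and 0.24, so changes are read against those shifts. Before that shift is taken off, the TPM log2 ratios were 1.05 and -1.58 for Dlk1, 2.86 and 3.30 for Plagl1, and 0.86 and -0.24 for Grb10. The summed astrocyte and the summed fibroblast and mural cell markers given above were also lowest in the libraries numbered 1, and summed neuron markers were highest there. The largest parts of the neuron sum there were Tubb3 and Stmn2. Stmn2 stood at 464 and 391.5 CPM there and at most at 94.9 CPM elsewhere. Other neuron markers, such as Mapt, Syt1 and Dlx1, were not highest in the libraries numbered 1. The part of all these markers in the differences between numbers was not tested.

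Of a list of 44 further imprinted genes, 37 were found and 26 tested. None passed between the populations in edgeR's test with group only or with the block (background 0% and 0.305%). At an unadjusted p under 0.05 there were 0 and 5 (background 2.67% and 10.7%). In all 3 pairs 9 were lower (background 17.1%) and 3 higher (background 19.1%) in Nanog+E-cadherin+ cells. The median log2 fold change was -0.13, against -0.01 over all genes tested. The smallest p in the blocked fit belonged to Begain, a synaptic gene beside Dlk1, at 307, 248 and 124 CPM in Nanog+E-cadherin+ cells and 509, 407 and 200.4 CPM in Nanog+E-cadherin- cells, with a log2 fold change of -0.72 ± 0.13 (SE, adjusted p = 0.0888 in edgeR's test with the block). Like Dlk1 and Rtl1, Begain was lowest in the libraries numbered 3. Trappc9, a subunit of a vesicle tethering complex, and Cdkn1c, the imprinted inhibitor of cyclin-dependent kinases, followed, with blocked log2 fold changes of -0.66 ± 0.20 and -0.70 ± 0.25 (SE) and edgeR adjusted p of 0.288 and 0.377. Between replicate numbers 7 of the 26 passed (26.9%), near the 22.2% of all genes.

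Fitted changes of genes of imprint maintenance and DNA methylation leaned the other way. Of 23 found, 21 were tested, 14 were fitted higher in Nanog+E-cadherin+ cells and the median log2 fold change was 0.17. Over all genes tested 6522 of 13460 were fitted higher, with a median of -0.01. None of the 21 passed in either fit (background 0% and 0.305%). At an unadjusted p under 0.05 there were 0 with group only (background 2.67%) and 4 with the block (background 10.7%). The 4 were Uhrf1, Zfp57, Dnmt1 and Trim28, all higher. Dnmt1, the maintenance methyltransferase, stood at 343, 373 and 338 CPM in Nanog+E-cadherin+ cells and at 319, 285 and 225 CPM in Nanog+E-cadherin- cells, without overlap. Groups did not overlap for 3 of the 21, all higher (background 3.76%). Uhrf1, which guides Dnmt1 to replicated DNA, averaged 473 ± 108 against 376 ± 135 CPM, and Zfp57 61.9 ± 12.8 against 44.01 ± 8.87 CPM (SD, n = 3 each). Dppa3 and Dnmt3l, which act on imprints in oocyte and embryo, were at most 1.38 and 0.661 CPM. Between replicate numbers 2 of 21 passed (9.52%), beside 22.2% of all genes.

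Among 17 tested genes of the insulin-like growth factor pathway, 0 passed between the populations in either fit (background 0% and 0.305%). At an unadjusted p under 0.05 there were 0 with group only (background 2.67%) and 5 in the blocked fit (background 10.7%). The smallest p in the blocked fit belonged to the binding protein genes Igfbp3 and Igfbp7 and to Igf2bp2, which binds Igf2 mRNA, with blocked log2 fold changes of 0.69 ± 0.21, -1.01 ± 0.36 and 0.47 ± 0.16 (SE) and edgeR adjusted p of 0.301, 0.378 and 0.346. Between replicate numbers 11 of 17 passed (64.7%), beside 22.2% of all genes. Igfbp5 ran from 18.99 CPM in Nanog+E-cadherin+ replicate 1 to 674 CPM in Nanog+E-cadherin+ replicate 3.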

How the data were processed

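RNA-seq values of 6 libraries, 3 per sorted population, were analysed, and titles gave each library its group and replicate number. The submitters' processing notes name Bowtie, RSEM 1.2.4 and mm9. How strand was used, and other settings, is not given in the sources used here. RSEM divides reads that match several genes. Per the file headers, the authors deposited expected counts, TPM and FPKM per gene. The expected counts were rounded to whole numbers, TPM served for levels and alternatives, and FPKM was not used. Total counts ran from 8851110 to 39630916 per library.

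The main test was edgeR 4.0.16 (R 4.3.3) with TMM, quasi-likelihood fits on group alone and Benjamini-Hochberg adjustment over 13460 genes, at a threshold of 0.05. Low counts were removed by filterByExpr with a minimum count of 10 and a minimum total of 15. It does not ask for 10 counts in every library, and Ascl2 passed with 0 in Nanog+E-cadherin- replicate 3. Alternatives were DESeq2 1.42.0, limma 3.58.1 (voom, or log2(TPM + 1) and log2(TPM + 0.1)), other scalings, no filter, a robust fit, leaving out libraries, and the replicate number as a block. Pair ratios used log2(CPM + 0.5).

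Same-numbered libraries had deviations from their group means that correlated across genes at 0.755, 0.411 and 0.483, above the limit of 0.1. Pairs of unequal number ranged from -0.617 to 0.122. The limit did not separate all of these. Nanog+E-cadherin+ replicate 2 with Nanog+E-cadherin- replicate 3 (0.122) and replicate 3 with replicate 2 (0.102) also exceeded it. The values, not the labels, are the source of the pairing. The F test of replicate numbers was run because of this pairing, so its outcome is not independent of that choice.

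Members and lists were chosen with earlier results of these data known. Members with at least 5 CPM in the higher group get values by library or range. Fold changes with SE are given for members whose groups do not overlap or that passed, and for the 4 of largest change; other genes are those that passed or had the 3 smallest p with the block. In data simulated with pairs, the blocked fit found 21 of 100 genes given a 2-fold change, found 95 of 100 given a 4-fold change, and called 5 others of 13460 wrongly. The fit on group alone found 0 of either size.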

Additional observations from a re-analysis of the deposited data

How the results depend on the processing

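The count of imprinted genes passing between the populations was 0 under every alternative with group as the only term (DESeq2's Wald test, limma-voom, limma on either TPM scale, other scalings, no filter, a robust fit, and without any library). DESeq2 gave no adjusted p for 7834 of 13460 genes, so its count of 0 covers only the members that had a value. With the replicate block it was 0 in edgeR, 2 in limma-voom (Nnat and Dlk1), and 0 to 3 in edgeR when both libraries of a number were left out: 1 without number 1 (Dlk1), 0 without number 2, and 3 without number 3 (Dlk1, Nnat and Peg10). The median log2 fold change of the members stayed below 0 in each of these fits. It was -0.367 with the block without number 2 (the range without a number was -0.367 to -0.211) and -0.105 without Nanog+E-cadherin- replicates 2 and 3, where Ppp1r9a turned to 0.443. Between replicate numbers, the count of 8 members (22.2% of all genes) was 3 without number 1 (2.19%), and between 8 and 11 under the other alternatives (23% to 38.7%). Over all genes, 0 passed between the populations, against 41 with the block, 264 with the block in limma-voom, 140 to 449 with the block and a number left out, 21 in DESeq2 with group only and 1 without the filter. Fits of 2 pairs or with a lone library in a group assume that the rest of the spread carries over. The 7 untested members held 43 counts or fewer in every library, and 19 or fewer in the deepest, Nanog+E-cadherin- replicate 1.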
